A study of Rattus norvegicus with 3 samples.

Results

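The genes described here encode the proteins of the cytosolic ribosome, the particle that translates messenger RNA in the cytoplasm. They were chosen by name alone. A gene belonged to the set when its name on the array began with Rpl or Rps and a digit, or was Rplp0, Rplp1, Rplp2 or Rpsa, and did not begin with Rps6k, the prefix of the S6 kinases. This gave 92 of the 19393 gene names on the array. Of the 92, 77 are the standard ribosomal proteins, with 46 in the large and 31 in the small subunit. A further 14 carry names of paralogs or processed copies, and Rps19bp1 encodes a binding partner of a ribosomal protein and no part of the ribosome.

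Kidneys came from male spontaneously hypertensive rats, a strain on a Wistar background, aged 8 to 10 weeks and weighing 280 to 330 g. Groups of 10 rats were given, by mouth for 28 days, water (control) or HBMP, the protein hydrolysate of blue mussel, at 10 mg/kg/day (low dose) or 20 mg/kg/day (high dose). RNA of 4 rats per group was pooled, labelled with Cy3 and put on an Agilent rat array, so each group is 1 array of 1 pool. No spread between animals can be read from such data and no test was possible. Differences are therefore given as sizes, beside the same measure over all genes.

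A ribosome has a small subunit, which reads the messenger RNA, and a large subunit, which joins the amino acids. The genes of its proteins are transcribed in every cell type and their messages are among the most abundant in a cell. Many of these messages start with a run of pyrimidines, through which the kinase complex TORC1 controls their translation. A messenger RNA level, as measured here, is no measure of that translation.

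Signal was read as fluorescence intensity, scaled to the 75th percentile of each array and expressed as log2. A probe counted as above background where its signal-to-noise ratio reached 3 on at least 50% of its spots, which held for 50.4% to 54.7% of the 30367 probes. Probes printed in 10 copies had a median SD between copies of 0.24, 0.18 and 0.19 (log2). Here and from now on, values of the 3 arrays are in the order control, low dose, high dose. All 11 tubule markers and all 5 podocyte markers listed for kidney stood above background on every array. Over all genes above background on both arrays compared, the median difference was -0.10 at the low dose and -0.04 at the high dose against control, and 0.04 between the high and the low dose.

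All 77 standard ribosomal protein genes, as named on the array, stood above background on all 3 arrays, as did 10 of the 14 copies. That makes 87 measured genes, with 53 named for the large and 34 for the small subunit. The other 5 members stood above background on no array, so no difference is given for them. They were Rpl3l (1.20, 0.95 and 0.87), Rpl17l1 (3.90, 3.27 and 3.68), Rpl31-l10 (4.59, 4.20 and 4.04), Rpl39l (2.78, 4.34 and 2.20) and Rps19bp1 (4.00, 2.53 and 3.20). Intensity depends on how well a probe binds its target, so the levels of different genes cannot be ranked as amounts of RNA. Of the 92 values, 90 rest on 1 spot per array.

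**Figure D1:**
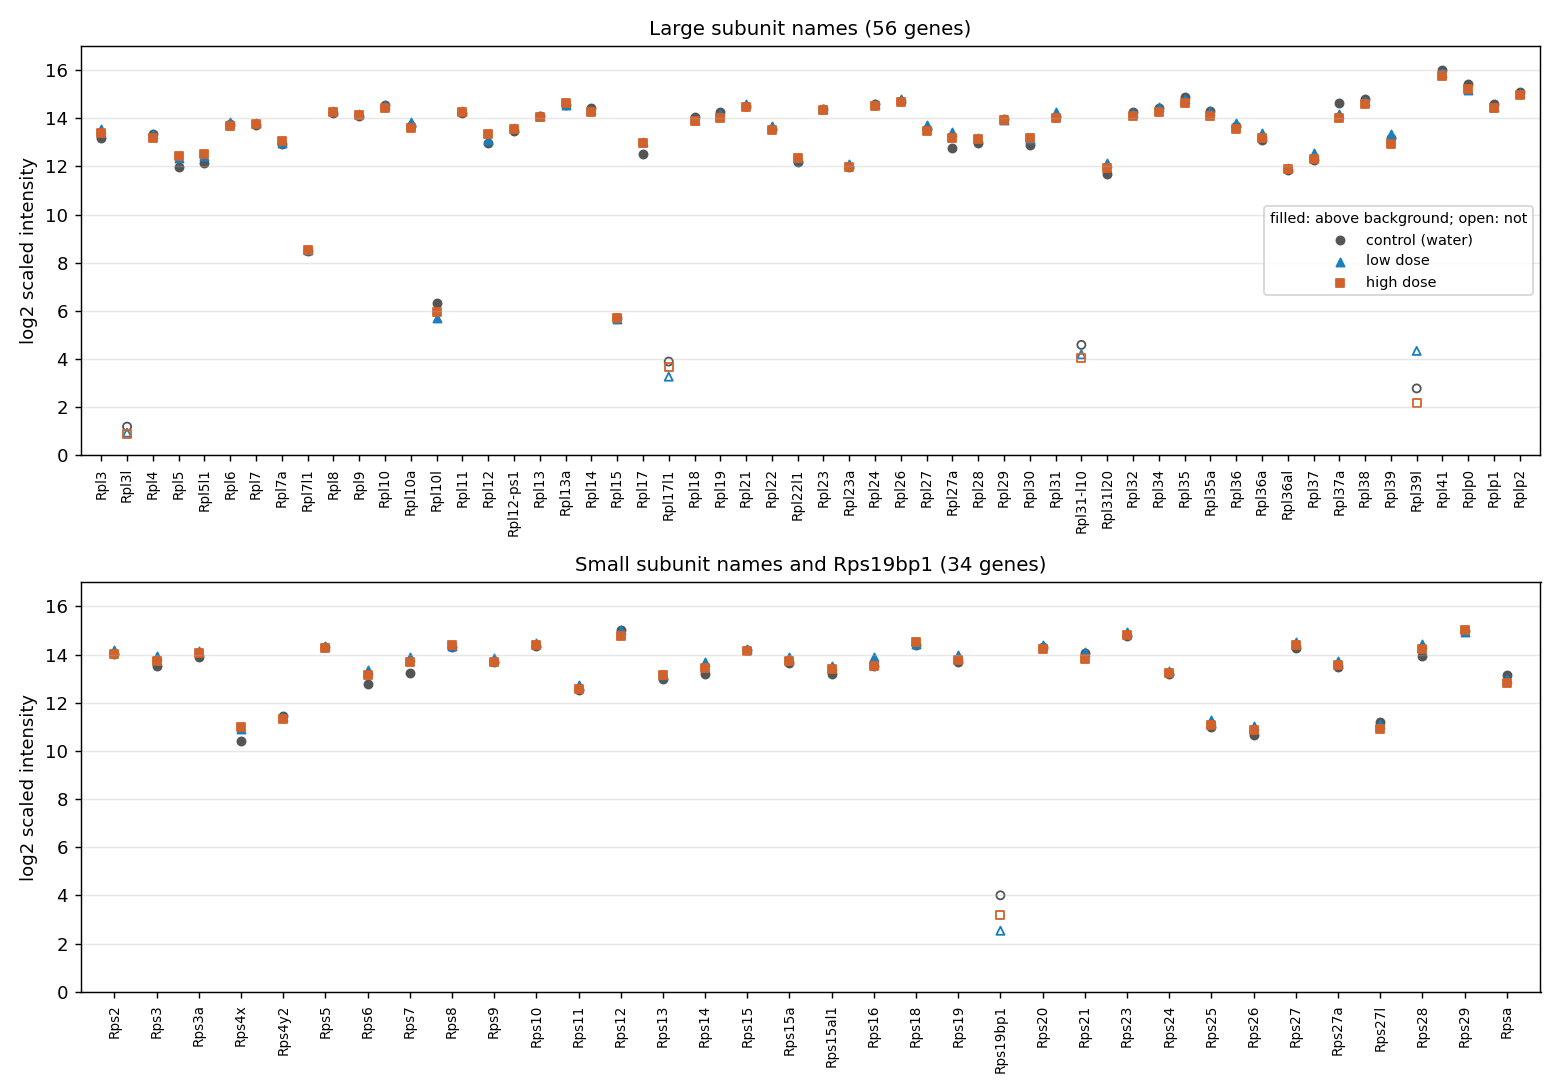
Log2 scaled intensity of 90 of the 92 genes (vertical axis) on each array (control, low dose, high dose), 1 array per group, genes in order of name. Filled symbols mark 85 genes above background on all 3 arrays and open symbols the 5 above background on none. The filled symbols of a gene lie close to each other, and no filled gene differs by 2-fold between any 2 arrays.

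The comparison of the low dose with control asked whether kidneys of treated rats differ in these messages. The ribosomal protein genes stood slightly above control. Their median difference was 0.11 (log2), and 63 of 87 (72.4%) had a higher signal at the low dose, against 36.4% of all 10356 genes measured on both arrays. The share above control was 86.2% after quantile normalization, 82.8% after normexp background correction, 82.8% by the mean of each gene's probes, and 88.5% in the values the authors deposited. The 36.4% of all genes was counted with the processing used here only. Under these alternatives, in the order given, the median of the ribosomal protein genes lay 0.22, 0.25, 0.25 and 0.22 above that of all genes. With the processing used here it lay 0.22 above. The interquartile range of the members ran from -0.02 to 0.26, a span of 0.27 against 0.39 over all genes. At least 1.5-fold differences occurred in 3 of 87 members against 11.2% of all genes. Of the 3, 2 were higher, against 6.61% of all genes, and 1 was lower, against 4.6%. No member of the 87 was 2-fold different (0 of 87), against 3.19% of all genes. All genes included 5760 outside the set at a mean log2 signal below 8, where only 2 members lay. Spans and fold shares of genes at like signal were not computed, here or in the other comparisons. A narrow range is therefore not shown to be particular to the members.

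Rps7, a small subunit protein, stood highest at the low dose. Its log2 signal was 13.24, 13.91 and 13.70, which is 1.60-fold above control at the low dose. In the values the authors deposited the difference was 0.44. Rpl27a, a large subunit protein, had 12.78, 13.42 and 13.19, or 1.56-fold. Rps6, the small subunit protein that S6 kinases phosphorylate, had 12.78, 13.36 and 13.16, a difference of 0.57 at the low dose. In all these genes the control array was lowest and the low-dose array highest. The spots of Rpl27a and Rps6 lie in separate patches of the arrays where spots above background differed from the rest by 0.27 and 0.26 between the low-dose and control arrays. With each patch centred, Rpl27a stood at 0.37 and Rps6 at 0.31. Rpl27a also has a dimmer probe, which gave 12.71, 12.70 and 12.60, a difference of -0.01. The dimmer probe of Rps6 gave 12.74, 12.95 and 12.90, or 0.21.

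Rps14, another small subunit protein, followed at 0.51, with 13.19, 13.70 and 13.43. All 3 of its probes gave like values at the low dose, 0.42, 0.38 and 0.51. Rps4x, the X-linked small subunit protein, and Rpl15 are the members whose probes were printed in 10 copies. The signals of Rps4x were 10.42 ± 0.30, 10.93 ± 0.21 and 10.99 ± 0.22 (SD over 10 spots of 1 array). Both treated arrays were higher, by 0.51 and 0.57, which exceeds the SD between the spots of an array but says nothing of the spread between rats. The values the authors deposited gave 0.65 and 0.77.

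At the other end, Rpl10l, a paralog of the large subunit protein Rpl10, was at 6.35, 5.70 and 5.96, a low-dose difference of -0.64. Its signal was dim, and with normexp background correction the difference was -0.39. Rpl10 itself differed by -0.02. Rpl37a, of the large subunit, had 14.64, 14.19 and 14.02, which is -0.45 at the low dose. Rplp0, which anchors the stalk of the large subunit, had 15.43, 15.18 and 15.23, a difference of -0.25. The stalk proteins it carries, Rplp1 and Rplp2, had 14.59, 14.45 and 14.40, and 15.10, 15.04 and 14.98, so that in each the control array was highest. Rpsa, a small subunit protein also known as the laminin receptor, had 13.15, 12.98 and 12.83, or -0.17, and its dimmer probe 9.91, 10.20 and 10.17, with control lowest.

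For the high dose against control the ribosomal protein genes lay on both sides of 0. Their median difference was 0.02, against -0.04 over all genes, and 48 of 87 (55.2%) were above control, against 44.3% of 10522 genes. By the median over spots and pixels in place of the mean, 43 of 87 were above control and the median was -0.00. With the authors' value table it was 0.10 and 65 (74.7%) were above, and by the mean of each gene's probes 0.04 and 57 (65.5%). Quantile normalization put 72.4% above control and normexp 67.8%. The 44.3% of all genes was counted with the processing used here only. The median of the members lay 0.06 above that of all genes here, and 0.05 by the median over spots and pixels. It lay 0.14 above with the authors' table, 0.07 by the mean of probes, 0.12 after quantile normalization and 0.14 after normexp. The interquartile range spanned 0.23, against 0.40 over all genes. At least 1.5-fold differences occurred in 1 of 87, against 7.55% of all genes, and at least 2-fold differences in 0 of 87, against 1.02%. The values the authors deposited put 1 member past 2-fold, Rpl15 at 1.13, which read 0.02 here. The member past 1.5-fold was Rpl37a, 1.54-fold lower than control; 3.81% of all genes were at least 1.5-fold lower. Its difference was -0.62 here and -0.14 in the values the authors deposited.

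Highest at the high dose stood Rps4x at 0.57. Rpl5, which carries 5S ribosomal RNA and binds the p53 regulator Mdm2, had 11.97, 12.36 and 12.44, a difference of 0.47 at the high dose. Rps7 stood at 0.47, Rpl27a at 0.40 and Rpl17 at 0.44, with 12.52, 13.01 and 12.96 for Rpl17. The dimmer probe of Rpl17 read 12.45, 12.72 and 12.48, which is 0.03 at the high dose. In Rps4x and Rpl5 the high-dose array was the highest, and in Rps7 and Rpl17 the low-dose array. Rpl11, the partner of Rpl5 in binding Mdm2, had 14.21, 14.28 and 14.25, a difference of 0.04. Its dimmer probe read 12.75, 13.20 and 13.30, or 0.55, so the probes of Rpl11 disagree by more than most members differ. Lowest after Rpl37a stood Rpl10l at -0.39, Rpsa at -0.31 and Rps21 at -0.28. Rpl41, the smallest protein of the ribosome, read -0.27, but 0% of its pixels were saturated at control, 40% at the low dose and 31% at the high dose. Its signals at both doses are lower bounds, and neither its difference nor its place among the lowest genes is settled.

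Both comparisons share the control array, so their values for a gene are not independent. Side by side, 46 of 87 members were above control at both doses (25.4% of all genes), 22 were below at both (44.7%), 17 (19.5%) were above at the low and below at the high dose (11% of all genes), and 2 (2.3%) the reverse (18.9%). The most frequent order of the arrays was low dose highest, then high dose, then control. It held for 35 of 87 members, 40.2%, against 13% of all 10255 genes above background on all 3 arrays. Among these 35 were 19 small and 16 large subunit genes.

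The doses were compared directly to ask whether the larger dose gave another level. Here the ribosomal protein genes lay lower at the high dose. The median difference, high minus low dose, was -0.12, against 0.04 over all genes. The median of members minus that of all genes was -0.16 here and by the mean of probes. It was -0.09 after quantile normalization and with the authors' table, and -0.12 after normexp. Only 17 of 87 (19.5%) were higher at the high dose, against 55.1% of 10781 genes, and 70 were lower. This was also the comparison in which the members were closest to each other: the interquartile range spanned 0.15, against 0.39 over all genes. At least 1.5-fold differences occurred in 0 of 87, against 9.46% of all genes, and at least 2-fold differences in 0, against 1.96%.

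Rpl39, a protein of the exit tunnel, was lowest at the high against the low dose, at -0.42, with 13.17, 13.36 and 12.94. Rps16 stood at -0.38, with 13.51, 13.89 and 13.51, so that the control and high-dose arrays were level and the low-dose array was above both. Rps21 was at -0.31 and Rps14 at -0.27. Among the highest were Rpl10l at 0.26, Rpl12 at 0.26, Rpl5l1 at 0.11 and Rps29 at 0.10. Rpl12, a protein near the base of the stalk, had 12.99, 13.08 and 13.34, with the high-dose array highest. A dimmer probe of Rpl12 gave 11.77, 11.95 and 11.75, with the high-dose array lowest.

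**Figure D2:**
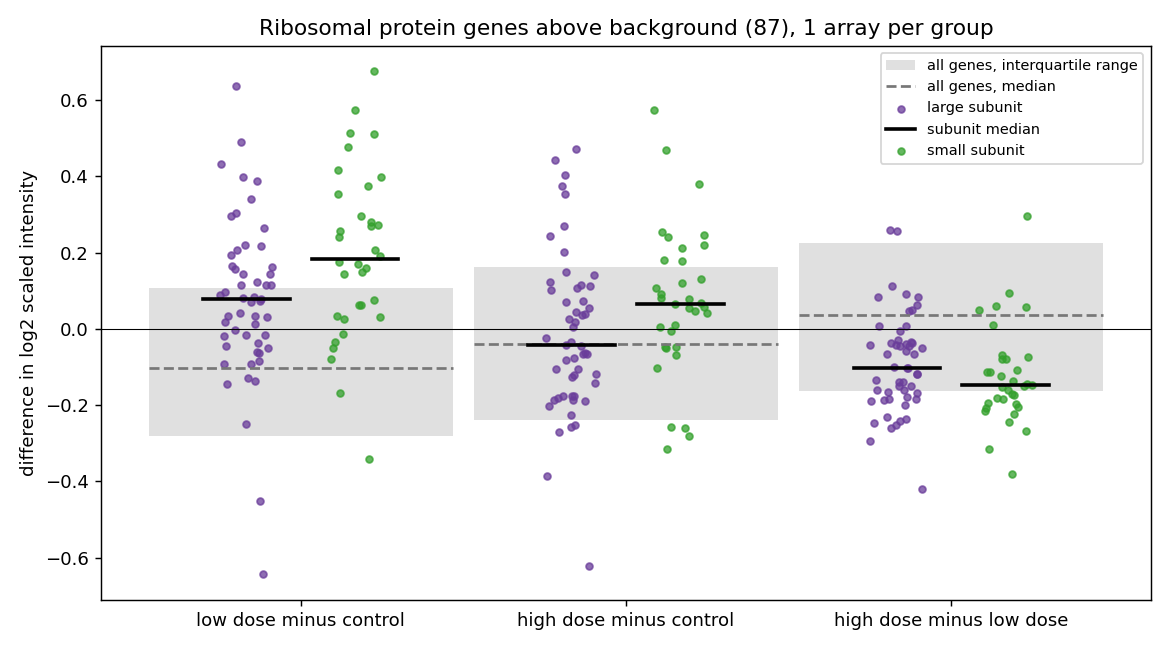
Difference in log2 scaled intensity (vertical axis) of the 87 genes above background, for the low dose minus control, the high dose minus control and the high minus the low dose, 1 array per group. Points are genes of the large (53) and small (34) subunit, black bars their medians, and the grey band and dashed line the interquartile range and median of all genes. Both subunit medians lie above the dashed line at the low dose, near it at the high dose and below it between the doses.

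The subunits were set against each other because each ribosome is built of a large and a small subunit. Large subunit genes stood lower than small subunit genes at both doses. At the low dose the median was 0.08 over 53 large and 0.18 over 34 small subunit genes, and 35 of 53 (66.0%) and 28 of 34 (82.4%) were above control. At the high dose the medians were -0.04 and 0.07, with 24 of 53 (45.3%) and 24 of 34 (70.6%) above control. The large minus small subunit gap was -0.10 and -0.11, and by the mean of each gene's probes -0.05 and -0.04. No spread between arrays of a group exists to set beside it. Between the doses the medians were -0.10 for large and -0.15 for small subunit genes.

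Differences were set beside signal. Across the 76 standard genes with a mean log2 signal of 10 or more, brighter probes had lower differences, with a Pearson correlation of -0.54 at the low and -0.52 at the high dose. Over all 87 members Pearson's r was -0.00 and -0.15, and Spearman's rho -0.43 and -0.40. This is a description across genes that share the arrays and the scale. The median over standard large subunit probes was 14.04 and over small subunit probes 13.82. Among standard genes at a log2 signal of 13 to 14, the low-dose medians were 0.15 over 16 large and 0.28 over 12 small subunit genes, and at 14 or more -0.01 over 24 and 0.07 over 14. At 10 to 13 they were level, at 0.30 and 0.30 over 5 genes each. The part of signal in the subunit gap was not tested further.

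Genes outside the set with like signal had lower medians than the members. At a log2 signal of 12 to 13, the low-dose median was 0.21 over 9 members and -0.11 over 271 other genes. From 13 to 14 it was 0.18 over 30 members and -0.11 over 157 others. At 14 or more it was 0.03 over 38 members and -0.20 over 83 others, of which 19.3% were above control. The high-dose medians at 14 or more were -0.05 over members and -0.18 over others. Below a log2 signal of 10 only 3 members remained, too few to set beside other genes.

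**Figure D3:**
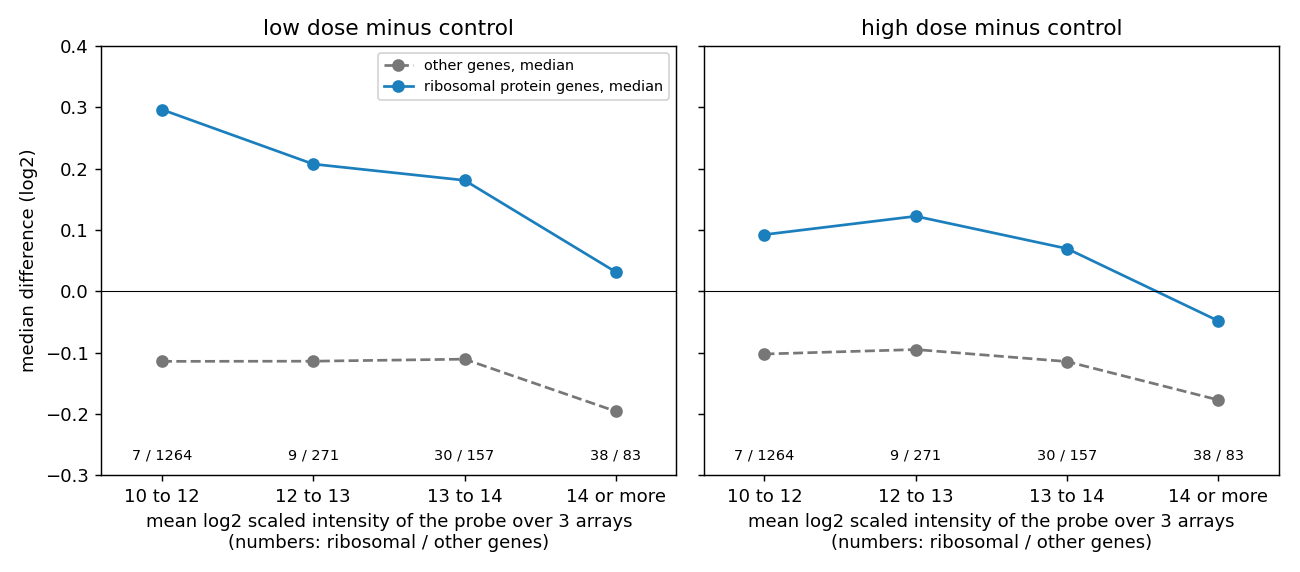
Median log2 difference (vertical axis) against control at the low dose (left) and the high dose (right), for ribosomal protein genes and all other genes above background, in 4 ranges of mean log2 signal; the numbers under the points count the ribosomal and the other genes. Ribosomal protein medians lie above those of other genes in every range, and both lines are lowest at 14 or more, at 0.03 and -0.20 for the low dose.

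Repeat probes check the values of single genes. Of the members, 52 had at least 2 probes above background on all arrays, 121 probes in all. The brightest and the dimmest probe of a gene differed by a median of 0.19 at the low dose and 0.18 at the high dose, without regard to sign. These are gaps of single genes, a measure unlike the signed median of the whole set, 0.11 and 0.02. With sign, the brightest minus the dimmest probe had a median of -0.08 and -0.07. Over the 52 genes the brightest probes had medians of 0.12 and 0.00, and the dimmest 0.23 and 0.10. At the high dose these probes lay on opposite sides of control in 24 of the 52 genes, and at the low dose in 12. The dimmest probe gave the higher value in 31 of 52 genes at the low and in 34 at the high dose. Over 124 other genes whose brightest probe was at a log2 signal of 12 or more, it did so in 63.7% and 76.6%. In 6 of the 52 genes the probes differed by over 0.5 at the low dose. For Rpl35 the brightest probe read -0.09 and the dimmest 0.73. Also among the 6 were Rpl37a, Rpl27a, Rpl32 and Rpl10, whose ranges over their probes were 0.67, 0.65, 0.59 and 0.51. At the high dose the ranges were over 0.5 in Rpl32 (0.76), Rpl37a (0.73), Rps2 (0.61), Rpsa (0.57), Rpl27a (0.51) and Rpl11 (0.51). For Rpl37a the 3 probes gave -0.62, 0.11 and 0.04 there, from the brightest to the dimmest. Its dimmest probe is listed under another transcript than the others and had a dim signal of 5.98, 5.70 and 6.02. Between the doses 1 of the 52 genes had a range over 0.5.

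**Figure D4:**
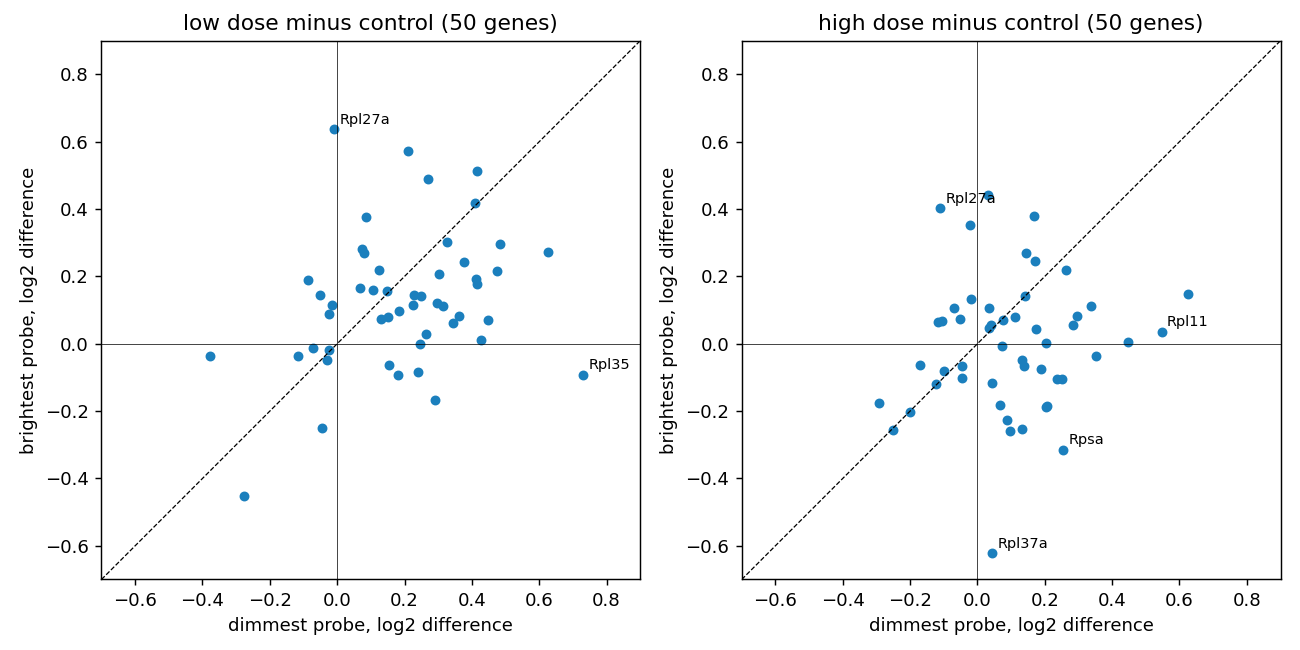
Log2 difference from control by the dimmest probe (horizontal axis) and the brightest probe (vertical axis) of the same gene, for the low dose (left) and the high dose (right); points are 50 of the 52 ribosomal protein genes with at least 2 probes above background, the dashed line marks equal values, and genes in which these 2 probes differ by over 0.5 are named. Points scatter widely about the line. Rpl35 lies far below it at the low dose and Rpl37a at the high dose. The dimmest probe of Rpl37a had a mean log2 signal of only 5.90.

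Paralogs were set beside the standard copy they resemble. Rpl22l1, which can replace Rpl22 in the ribosome, stood at 12.20, 12.36 and 12.35, and Rpl22 at 13.56, 13.67 and 13.50. Their low-dose differences were 0.16 and 0.11. Rps27l, a p53-responsive paralog, had 11.18, 11.10 and 10.92, a high-dose difference of -0.26, while Rps27 had 14.26, 14.53 and 14.39, or 0.13. Rps27l was highest on the control array and Rps27 lowest there. Rpl36al, whose probe matched Rpl36al1 in RefSeq, differed by 0.08 and 0.04 at the low and the high dose, and Rpl36a by 0.30 and 0.11. Rpl7l1, a nucleolar relative of Rpl7, read 8.50, 8.51 and 8.52, level on all arrays. Rps4y2 differed by -0.04 and -0.10, against 0.51 and 0.57 for Rps4x.

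Other copies were set beside their parents likewise. Rpl12-ps1 was at 0.14 and 0.11 at the low and the high dose, against 0.10 and 0.35 for Rpl12. Rpl5l1 stood at 0.26 and 0.38, against 0.39 and 0.47 for Rpl5. Rps15al1 was at 0.35 and 0.24, against 0.24 and 0.08 for Rps15a, whose dimmer probe gave 0.38 and 0.29, above the copy. Rpl31l20 was at 0.43 and 0.24, against 0.22 and -0.04 for Rpl31, whose dimmer probe gave 0.48 and 0.35, again above the copy. Rpl3l, a muscle form of Rpl3, and Rpl39l, a testis form of Rpl39, were among the members above background on no array. The probe of Rpl39l matched Rpl39l1 in RefSeq. RefSeq's annotation of the GRCr8 assembly lists 839 pseudogenes with names of this kind, so a probe can bind messages of several near-identical copies, and the values of single genes are uncertain to that extent. The array also holds 208 probes described as ribosomal proteins or their copies under other names. Of these, 180 stood above background on all arrays, with medians of 0.22 at the low dose, 0.13 at the high dose and -0.11 between the doses.

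Promoter sequences are shown for the genes whose mean difference over both doses was highest or lowest among those in the RefSeq promoter table of GRCr8, to let the start of each message be compared. Each line gives 30 bases before and 15 bases from the annotated start, 5′ to 3′; capitals mark the longest run of C and T that touches the 20 bases on either side of the start, as far as it lies in the printed stretch. The highest come first. Rpl41 is shown among the lowest with its saturated signal as it was read.
Rps7: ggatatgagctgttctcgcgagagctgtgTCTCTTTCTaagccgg
Rps4x: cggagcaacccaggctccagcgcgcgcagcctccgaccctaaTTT
Rpl27a: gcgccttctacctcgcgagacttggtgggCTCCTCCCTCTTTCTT
Rps6: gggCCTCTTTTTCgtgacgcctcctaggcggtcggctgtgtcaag
Rpl37a: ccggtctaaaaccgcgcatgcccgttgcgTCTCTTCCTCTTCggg
Rpsa: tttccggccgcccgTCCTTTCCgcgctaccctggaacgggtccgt
Rplp0: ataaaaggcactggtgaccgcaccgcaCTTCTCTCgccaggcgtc
Rpl41: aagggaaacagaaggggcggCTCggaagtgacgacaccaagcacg
The stretches lie at chr6:50999431-50999475 (minus strand) for Rps7, chrX:71342907-71342951 (minus) for Rps4x, chr1:172974543-172974587 (plus) for Rpl27a and chr5:106420526-106420570 (minus) for Rps6. Those of the lowest genes lie at chr9:81748061-81748105 (plus) for Rpl37a, chr8:128728849-128728893 (plus) for Rpsa, chr12:46718376-46718420 (minus) for Rplp0 and chr7:1563483-1563527 (minus) for Rpl41.

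Among the printed genes, a pyrimidine run of at least 8 bases spanned the start in Rps7 (9 bases) and Rpl27a (20 bases) of the highest, and in Rpl37a (13 bases) and Rplp0 (8 bases) of the lowest. In the other 4 it did not: the run of Rps6 ended 18 bases and that of Rpsa 9 bases before the start, that of Rps4x had 7 bases beginning after it, and that of Rpl41 had 3 bases. Counted next were runs of at least 8 bases touching the 20 bases on either side of the start, whether or not they spanned it. Of the 62 standard genes found in the promoter table, 50 (80.6%) had such a run, against 20.3% of 19005 protein-coding promoters. The 50 genes had a median low-dose difference of 0.14, and the 12 with a shorter run 0.08. At the high dose the medians were -0.00 and -0.01. The letters CCGGAAG, the core bound by ETS factors, occurred on either strand within 250 bases before to 50 after the start in 20 of 62 (32.3%), against 11.2% of all. The letters AAGATGG, part of the YY1 motif, occurred in 10 of 62 (16.1%), against 7.58%. The letters TATAAA occurred in 6 of 62 (9.68%), against 13.1%. The first pair of motifs share the letters AAG, and a match to one overlapped a match to the other through them in 0 of the 62 promoters and in 4 of the 19005. A match is a description of the letters and no proof of binding.

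Ribosomal proteins that the name rule leaves out include Fau, which is made as a fusion to a ubiquitin-like protein, and Gnb2l1, the scaffold Rack1 of the small subunit. Fau had 15.01, 14.89 and 14.85, highest on the control array. Gnb2l1 had 10.50, 10.92 and 11.03, so it stood 0.43 and 0.53 above control.

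Other parts of the translation machinery were measured beside them. Of all genes, 36.4% were above control at the low and 44.3% at the high dose. Of 66 mitochondrial ribosomal proteins above background, the median was -0.07 at the low and 0.06 at the high dose, with 19 and 41 above control. Between the doses 54 of the 66 were higher at the high dose, against 55.1% of all genes, the opposite side from the cytosolic set. Of 37 initiation factors, 14 were above control at the low and 19 at the high dose, with medians of -0.04 and 0.01. Eif1a, which helps the small subunit scan for the start codon, stood lowest at the high dose, at -1.20, with 7.64, 7.49 and 6.44, so that only the high-dose array was low. Of 12 elongation and termination factors 4 and 6 were above control, with medians of -0.04 and -0.01. Eef2, which moves the ribosome along the message, was at 0.34 and 0.57. Ribosome biogenesis genes had medians of -0.04 and -0.01 over 43 genes, and the nucleolar chaperone Npm1 stood highest at 0.56 and 0.76.

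Among 21 TORC1 and S6 kinase genes, the median was -0.24 at the low and -0.07 at the high dose. Of the 21, 6 and 8 were above control, against 36.4% and 44.3% of all genes. Eif4ebp1, the inhibitor of cap-dependent translation that TORC1 inactivates, had 8.47, 9.84 and 9.07, which is 1.36 above control at the low dose. Larp1, which binds the pyrimidine run at the start of ribosomal protein messages, was highest on the control array and differed by -0.35 at the low and -0.69 at the high dose. Myc, a transcription factor that drives ribosomal protein genes, had 6.85, 7.53 and 6.21, highest at the low dose and lowest at the high dose.

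Markers of other cell types and of the kidney itself differed between the arrays. The summed scaled intensity of 8 fibroblast and matrix markers was 4090, 13800 and 4580. All 7 of them that stood above background, among them Col1a1 and Dcn, were at least 2-fold higher at the low dose, against 2.47% of all genes, and Lum stood above background on no array. For 10 macrophage markers, 9 of them above background on all arrays, the sums were 17000, 24700 and 16100. For 11 adipocyte markers, of which Plin1 and Lep stood above background on no array, they were 1190, 9380 and 4490, with a median difference of 3.02 at the low and 2.25 at the high dose over the 6 above background. Smooth muscle markers summed to 471, 840 and 911, with medians of 0.49 and 0.75, and red blood cell markers to 47500, 54200 and 56200. For 11 proliferation markers the sums were 761, 861 and 821. Over the 5 above background on all arrays the medians were 0.04 and 0.06. Of the 5, 3 and 4 were above control, against 36.4% and 44.3% of all genes. Of these 5, 2 were at least 1.5-fold higher at the low dose, against 6.61% of all genes. They were Cdk1 at 1.15 and Mki67 at 0.62, which stood at 0.12 and -0.37 at the high dose. For 9 T and B cell markers, 7 of them above background on no array, the sums were 308, 383 and 345. Skeletal muscle markers, 4 of 5 above background on no array, summed to 131, 118 and 132. Kidney tubule markers summed to 122000, 114000 and 104000. Of the 11, 1 was above control at the low and 3 at the high dose, against 36.4% and 44.3% of all genes. The medians were -0.39 and -0.33. Aqp2, the 1 above control at the low dose, had 13.58, 14.92 and 14.20. It was the brightest of the 11 on the low-dose array, so the order of the sums need not be that of the other markers. Of the 5 podocyte markers 0 and 1 were above control, against the same shares of all genes, with medians of -0.42 and -0.30. Within whole kidney, more cells of a type and more RNA per cell cannot be told apart, and the part of these cell types in the ribosomal protein differences was not tested.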

How the data were processed

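Kidney RNA of 3 groups of rats was measured on 1-colour Agilent arrays, 1 array per group, each a pool of 4 rats. Per the file headers, the scans were read with GenePix Pro 6.1.0.4 at 532 nm, although Agilent Feature Extraction is the tool in the submitters' processing notes. The header of the high-dose array names a mouse design, but its gene names equal those of the other arrays. The deposited files give each spot's mean intensity less a constant background of 39 or 40, the signal-to-noise ratio and a percent of saturated pixels; log2 values per probe, normalized in a way no label or header states, were deposited by the authors as well. Per the file headers, the scanner's ratio of signal to noise and its spot flags are unit-free scores.

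Among spots with a signal-to-noise ratio of at least 3, those missed by the scanner's grid were left out. So were those whose mean and median pixel differed more than 1.5-fold in either direction. Spots of a probe were averaged, arrays scaled to an equal 75th percentile, values floored at 1 and log2 taken. A gene's value is that of its brightest probe above background, chosen by the mean over the 3 arrays. Genes named are the 5 highest and 5 lowest of each comparison, those 1.5-fold different or below background, paralogs with their parents, Rplp0, Rplp1, Rplp2, Rpsa, Rps6, Rpl5, Rpl11, members whose probes differ by over 0.5, and at most 4 genes per other list with the largest differences. A few genes that this rule names are counted but not reported here by name. The marker genes were named after their values were seen. Set members and lists were chosen with earlier results of these data known. With 1 pool per group no test was run; 1.5-fold and 2-fold mark sizes only, and the number of arrays limits precision. The depth of an array is its signal over background: 15317 to 16605 of 30367 probes. Averaging, scaling and the choice of probe were checked on simulated arrays with 2-fold changes and less spread between spots than measured here. Smaller differences, the filters on spots and the alternative processing were not checked in this way. Python 3.11.15, numpy 2.4.6, pandas 2.3.3 and matplotlib 3.10.9 were used. Gene names and promoters came from RefSeq (GRCr8). By accession 140 of 165 member probes matched, 135 to the same symbol and 5 to another. The 5 were all probes of Rpl37, matched to Rpl37l1, and the only probes of Rpl36al and Rpl39l, matched to Rpl36al1 and Rpl39l1. These genes were counted and compared under their names on the array.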

Additional observations from a re-analysis of the deposited data

How the results depend on the processing

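The results were recomputed under 12 alternatives: quantile or median scaling, normexp background, the authors' table, the mean over probes, no filter on dim probes, non-uniform spots kept, saturated members left out, medians over spots and pixels, and 3 chosen after seeing the data (the dimmest probe, patches of 14 columns by 34 rows centred, and standard genes only). The low-dose median ranged from 0.09 to 0.17 and the high minus low dose median from -0.15 to -0.08. The high-dose median ranged from -0.00 to 0.10 and lost its positive sign, at -0.00, with medians over spots and pixels. Large minus small subunit ranged from -0.13 to -0.05 at the low and from -0.13 to -0.04 at the high dose. The number of members past 1.5-fold at the low dose was 3, and 6 with no filter on dim probes, 1 with medians over spots and pixels, 1 with patches centred, 4 with the dimmest probe, 2 with the authors' table, with the mean over probes and with standard genes only, and 3 in the others. At the high dose it was 1, and 2 with the authors' table, 3 with no filter, and 0 with the mean over probes, with medians over spots and pixels and with patches centred. The 1 was lower than control, but with quantile scaling, normexp and the dimmest probe the 1, and with the authors' table both, were higher, and 1 of these was past 2-fold. With no filter 2 were past 2-fold at the low dose and 1 between the doses. Between the doses it was 0, and 1 with the authors' table, 1 with the dimmest probe and 2 with no filter. The share of all genes past 1.5-fold was counted with the processing used here only. It was 11.2% at the low dose, 7.55% at the high dose and 9.46% between the doses. The counts under the alternatives therefore have no share of all genes beside them. None of the 4 members past 1.5-fold kept that size under all 12 alternatives. With the dimmest probe, Rpl27a at the low dose turned to -0.0086 and Rpl37a at the high dose to 0.0446. The dimmest probe of Rpl37a had a mean log2 signal of only 5.90 and is listed under another transcript than its brightest. Rps7 at the low dose was 0.43 to 0.55 under the authors' table, medians over spots and pixels, and patches. The cause of these moves was not tested. No paired analysis was possible because each group is 1 array. Leaving out an array was not possible for the same reason, and the spread between rats is unknown.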

Other observations

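The member with the dimmest signal among the standard genes, Rpl15, was printed in 10 copies and read 5.69 ± 0.26, 5.65 ± 0.33 and 5.71 ± 0.21 (SD over 9, 9 and 10 spots) at control, the low dose and the high dose. These arrays differed by less than the spread between the spots used. With non-uniform spots kept, the low-dose difference was 0.48 in place of -0.04, and the values the authors deposited gave 0.32 at the low and 1.13 at the high dose. RefSeq lists 36 entries named as copies of Rps2, 29 of Rps27a, 27 of Rpl9 and 23 of Rps7, against 12 of Rpl5 and 9 of Rpl11.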
